A study of Mus musculus with 20 samples.

Results

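The livers were examined for a list of 38 marker genes of Kupffer cells and other macrophages, given by gene symbol. They fall into 8 markers of resident Kupffer cells, 24 markers shared by macrophages and other myeloid cells, and 6 markers of lipid-associated or recruited macrophages. For 36 of the 38 genes, among 19505 genes on the array, a probe set was assigned to the symbol, and for each of them it was 1 probe set. No probe set is assigned to Cd68 or Clec7a in the probe table used here, and both are only named. Of the 36, 35 were bright enough to be tested among 11844 genes. Itgax, which encodes the integrin CD11c, was left out with a mean log2 signal of 3.09, and Trem2 lay just inside the limit of 4.05 with a mean of 4.06.

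Liver RNA came from 20 male ob/ob mice, 5 in each of 4 groups, on 1 array per mouse. All mice, controls included, carry the ob mutation in both copies of the leptin gene, so they lack leptin and become obese, and no lean mouse was part of the design. The groups were filtered air, metformin, PM2.5 (fine airborne particles) and PM2.5 and metformin, the last called the combined group here. PM2.5 exposure took place in a chamber, 6 hours each day, over 2 weeks, and metformin, a glucose-lowering drug, was given in drinking water by body weight. The labels name no age, no batch and no air for the metformin group. Chamber hours are given for the particle groups, so that particles and chamber stay cannot be told apart. Mice are numbered 1 to 5 within a group by order of deposit, and equal numbers pair no mice.

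Kupffer cells are the macrophages that live inside the sinusoids of the liver, where they clear bacteria, dying cells and debris from the blood of the gut. In mice they are told from monocyte-derived macrophages by genes such as Clec4f, Vsig4 and Timd4, while Adgre1, Csf1r and the C1q genes are shared more widely. Adgre1 is nonetheless counted in the resident class here, so that this class is not made up of Kupffer-specific genes alone. In obese and fatty livers, monocytes can enter and take on a lipid-associated state marked by Trem2 and Gpnmb. In RNA from whole liver, fewer cells of a type and less RNA per cell cannot be told apart.

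Signals are the deposited log2 values. The mean of the negative-control probe sets' median was 4.49 and that of their 95th percentile was 8.36, and these serve as the background. All 11 tested hepatocyte markers lay above 8.36, with means from 13.05 to 18.9. Of the 8 resident markers, 3 had a mean above it (Clec4f 9.81, Vsig4 12.33 and Cd5l 12.01), and the dimmest of the 8 was Marco at 5.32. Of the 23 general myeloid markers on the array, 13 lay above it, and Irf8 at 4.39 lay below the negative-control median. Of the 5 lipid-associated or recruited markers on the array, 0 lay above 8.36, and their means ran from 3.09 to 5.92. Levels of different probe sets are not set against each other.

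The arrays of the combined group were not alike. Over all genes, 19 of 20 arrays correlated best with the mean of their own group. The exception was mouse 5 of the combined group, with a correlation of 0.9917 with the PM2.5 mean and 0.9856 with the other mice of its own group. It was the highest mouse of its group in 32 of the 35 tested markers. Mouse 2 was the lowest in 28. The negative-control median was 4.79 in mouse 2, 4.69 in mouse 4 and 4.59 in mouse 1 of this group, against 4.34 to 4.54 in the mice of the other groups, while mice 3 (4.46) and 5 (4.44) lay within that range. Counts of markers that passed in this group are given with all 5 mice, without mouse 5, and without mice 2 and 4, the mice with the highest background.

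Combined exposure to PM2.5 and metformin went with lower Kupffer cell and macrophage markers than PM2.5 alone. Of 35 tested markers, 16 fell and 0 rose, where 4.73% of all tested genes fell and 6.95% rose (limma, adjusted p under 0.05 over all 11844 genes). The median log2 difference of the 35 was -1.0, beside -0.01 over all tested genes, and all 35 differences were below 0. By class, 5 of 8 resident markers fell with a class median of -1.28, 11 of 23 general myeloid markers with a median of -1.01, and 0 of 4 lipid-associated or recruited markers with a median of -0.39. Whether the classes differ from each other was not tested. In 23 of the 35 markers, at least 4 of 5 combined mice lay below every PM2.5 mouse, which held for 8.64% of all tested genes.

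**Figure D1:**
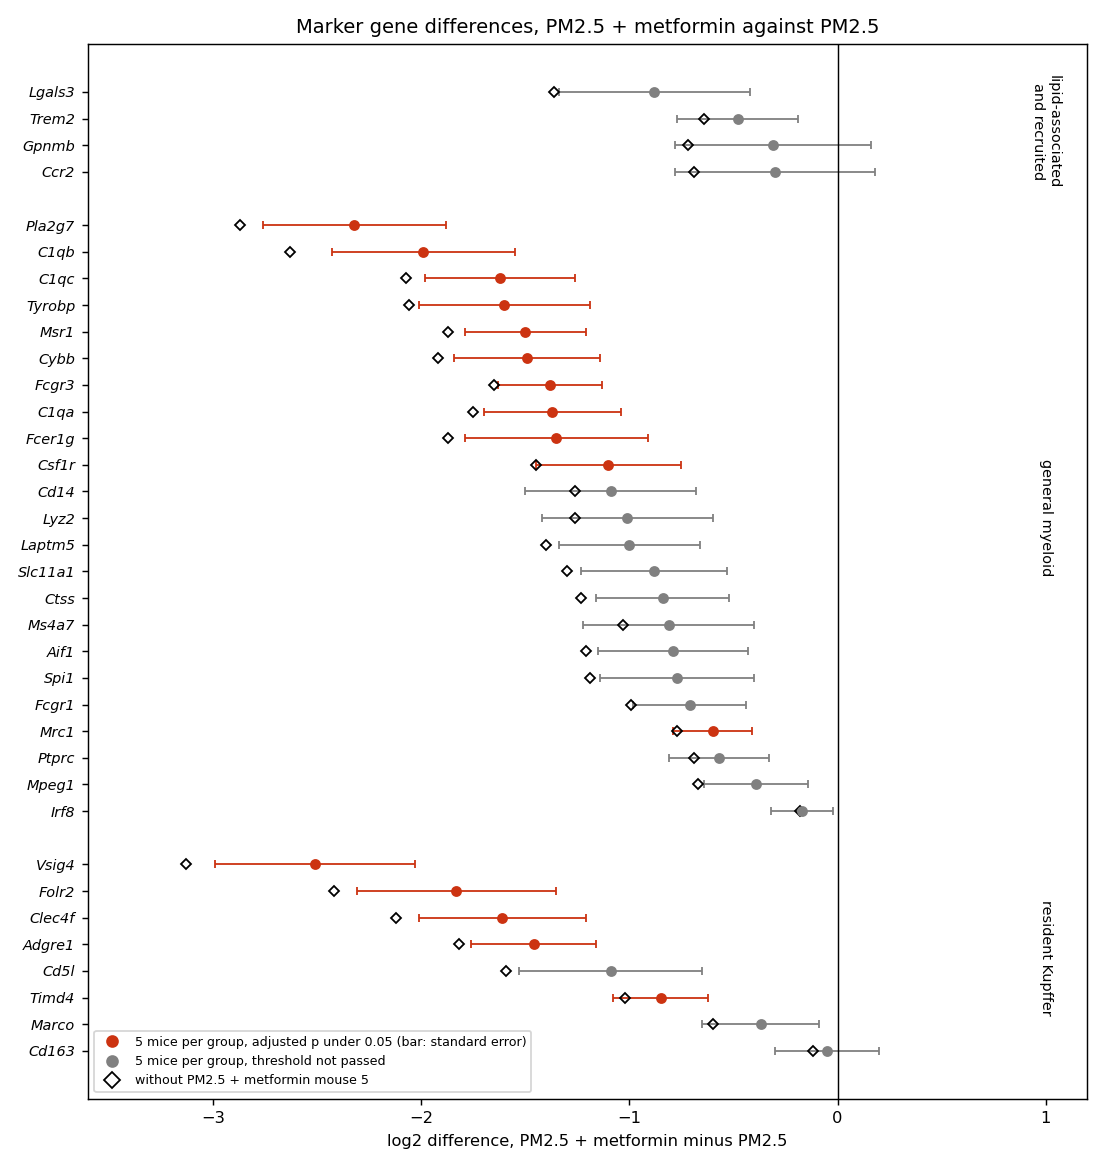
Log2 difference of each of the 35 tested markers between the combined group and PM2.5 (horizontal axis, with standard error), by class. Red points passed an adjusted p of 0.05, grey points did not, and diamonds give the difference without mouse 5 of the combined group, which lies below the full estimate for every marker drawn. That order follows by arithmetic, as mouse 5 lies above the mean of its group and is its highest mouse in 32 of the 35.

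Vsig4, the complement receptor with which Kupffer cells catch opsonised bacteria, had the largest difference among the markers. In the PM2.5 mice its log2 signal was 13.02, 13.02, 13.75, 13.37 and 13.28, and in the combined mice 11.00, 8.75, 10.47, 10.38 and 13.28. Mice 1 to 4 of the combined group lay below all mice of the other 3 groups, whose lowest value was 12.19, whereas mouse 5 lay within the PM2.5 range. The difference was -2.51 ± 0.48 (SE; a 5.68-fold lower signal, adjusted p = 0.00273), and it was -3.13 ± 0.31 without mouse 5. Without mice 2 and 4 it was -1.70 ± 0.40 (adjusted p = 0.0347).

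Clec4f, a lectin that in mice is made by Kupffer cells, behaved likewise. Its log2 signal was 10.17, 9.92, 10.91, 10.98 and 10.51 with PM2.5 and 8.53, 7.47, 8.63, 8.90 and 10.93 in the combined group. Again mice 1 to 4 lay below every PM2.5 mouse and mouse 5 did not. The difference was -1.61 ± 0.40 (3.05-fold lower, adjusted p = 0.0138). It was -1.14 ± 0.41 without mice 2 and 4, which did not pass (adjusted p = 0.167).

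Adgre1, whose adhesion-receptor product is the usual stain for mouse macrophages, measured 8.63, 8.26, 9.67, 9.05 and 9.14 with PM2.5 and 7.55, 6.64, 7.02, 7.34 and 8.89 in the combined mice. It fell by 1.46 on the log2 scale (SE 0.30, adjusted p = 0.00482), with a difference of -1.82 without mouse 5 and of -1.13 without mice 2 and 4 (adjusted p = 0.08). Folr2, the folate receptor beta of resident macrophages, measured 9.08, 8.33, 9.49, 9.36 and 8.67 against 6.96, 5.49, 6.85, 6.96 and 9.53. It fell by 1.83 (SE 0.48, adjusted p = 0.0191), with -2.42 without mouse 5 and -1.2 without mice 2 and 4 (adjusted p = 0.224). In both genes 4 of 5 combined mice lay below all PM2.5 mice. Timd4, the phosphatidylserine receptor of long-lived Kupffer cells, was dimmer, at 7.06 ± 0.31 with PM2.5 and 6.20 ± 0.47 in the combined group (SD, n = 5), and fell by 0.85 (SE 0.23, adjusted p = 0.0201). Its difference was -1.02 without mouse 5 and -0.72 without mice 2 and 4 (adjusted p = 0.159).

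The other 3 resident markers did not pass. Cd5l, a secreted protein that keeps macrophages alive, differed by -1.09 ± 0.44 (adjusted p = 0.114) and by -1.59 ± 0.35 (adjusted p = 0.00392) without mouse 5. Marco, a scavenger receptor, differed by -0.37 ± 0.28 (adjusted p = 0.427). Cd163, the haemoglobin-haptoglobin scavenger receptor, stood at 7.43, 7.66, 7.36, 6.59 and 7.16 with PM2.5 and at 6.98, 6.58, 6.89, 8.04 and 7.47 in the combined mice. The groups overlapped for Cd163, and the difference was -0.05 ± 0.25 (adjusted p = 0.931).

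**Figure D2:**
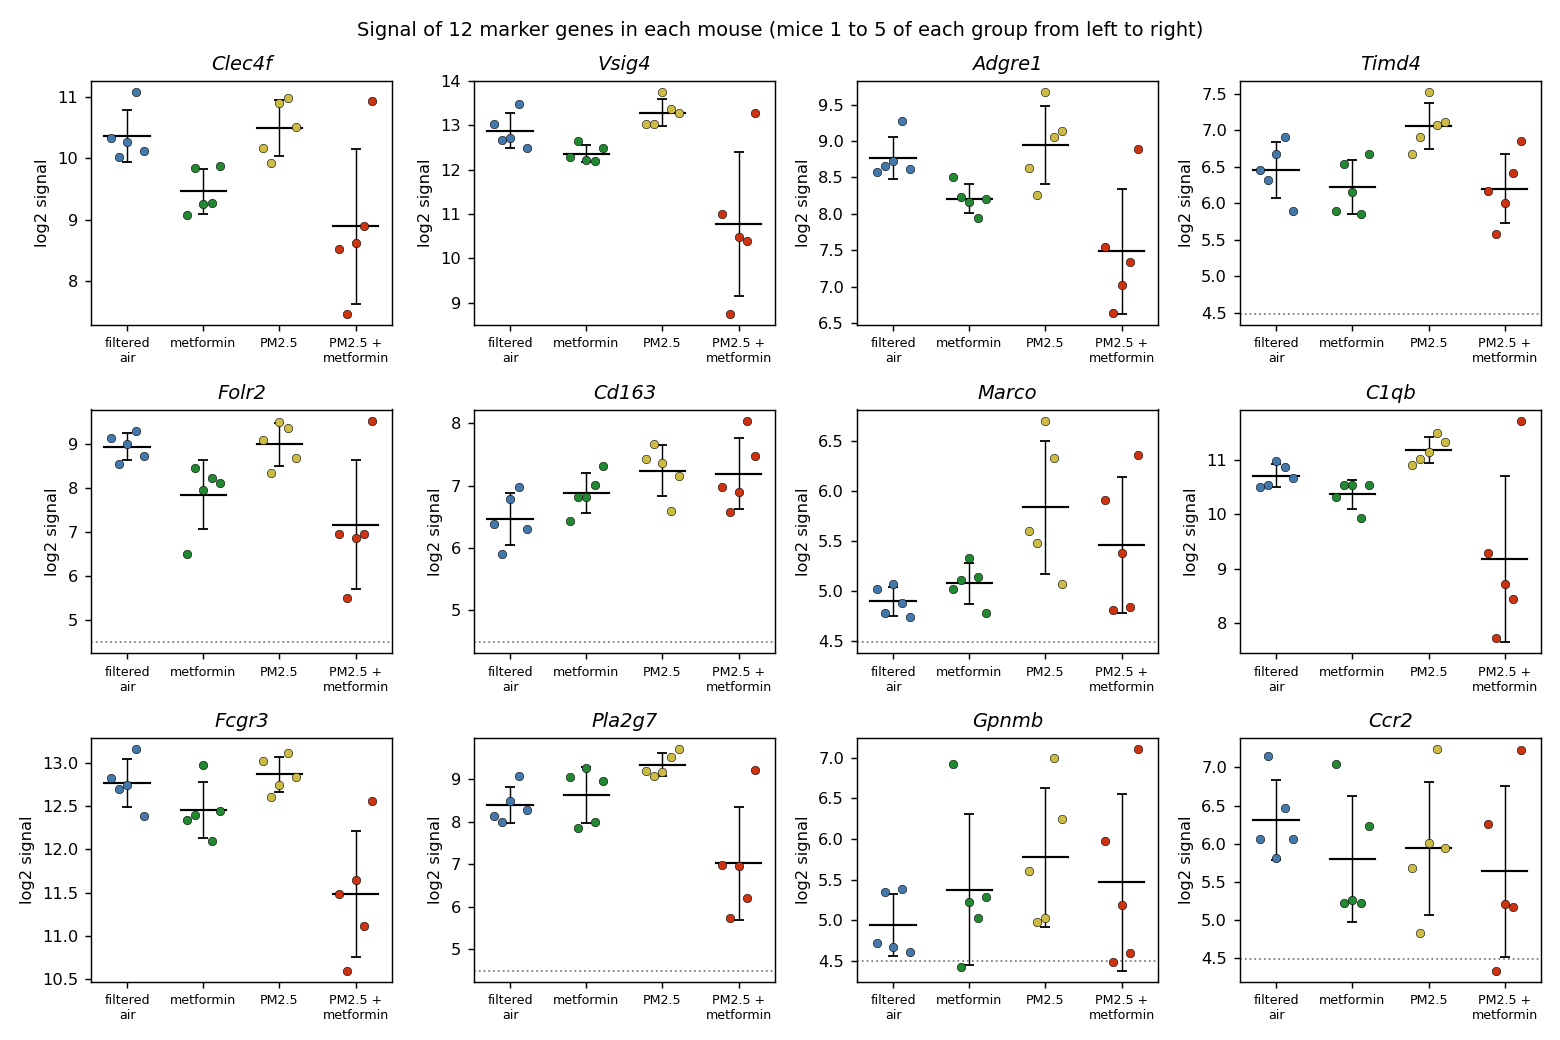
Log2 signal of 12 marker genes in each of the 20 mice, with points for mice 1 to 5 from left to right, the group mean (line) and SD (bar), on an axis per gene that does not start at 0. The dotted line, where in range, is the mean negative-control median of 4.49. In Clec4f, Vsig4, Adgre1, Folr2, C1qb, Fcgr3 and Pla2g7 combined mice 1 to 4 sit low and mouse 5 sits high, and Cd163 has no such order.

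The 3 C1q genes encode the chains of C1q, which opens the classical complement pathway and is made in the liver largely by macrophages. C1qb measured 10.90, 11.02, 11.14, 11.50 and 11.32 with PM2.5 and 9.30, 7.73, 8.72, 8.44 and 11.72 in the combined group. Combined mouse 5 was the highest of all these mice, and its 4 group mates were the lowest. C1qb fell by 1.99 (SE 0.44, adjusted p = 0.00665), C1qc by 1.62 (SE 0.36, adjusted p = 0.00715) and C1qa by 1.37 (SE 0.33, adjusted p = 0.0104). Without mouse 5 these differences were -2.63, -2.07 and -1.75, and without mice 2 and 4 they were -1.26, -1.06 and -0.96 with no adjusted p under 0.121.

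The promoters of a pair of C1q genes and a pair of resident markers that fell are shown to set out the sequence upstream of genes that moved together. C1qa, C1qb and C1qc are neighbours in the RefSeq gene order. Each window holds the 250 bases before the RefSeq start in GRCm38.p6, all on the minus strand and written 5′ to 3′ along the gene: C1qb at chr4:136886201-136886450, C1qc at chr4:136892915-136893164, Clec4f at chr6:83656117-83656366 and Vsig4 at chrX:96293439-96293688. Capitals mark matches, on either strand, to GAGGAAGT, a form of the site bound by PU.1 (the product of Spi1), and to TCATGTG, the M-box bound by MITF and TFE factors. No match of one motif overlaps a match of the other in these windows.
C1qb: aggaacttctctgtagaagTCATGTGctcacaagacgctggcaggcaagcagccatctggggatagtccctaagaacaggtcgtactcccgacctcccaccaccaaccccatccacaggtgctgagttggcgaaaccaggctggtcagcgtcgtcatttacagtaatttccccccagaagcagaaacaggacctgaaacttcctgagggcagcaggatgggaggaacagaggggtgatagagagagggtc
C1qc: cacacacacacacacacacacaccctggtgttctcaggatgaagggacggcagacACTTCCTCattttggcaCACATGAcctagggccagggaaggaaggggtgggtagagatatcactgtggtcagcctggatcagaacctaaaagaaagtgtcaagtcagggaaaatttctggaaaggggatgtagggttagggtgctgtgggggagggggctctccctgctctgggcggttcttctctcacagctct
Clec4f: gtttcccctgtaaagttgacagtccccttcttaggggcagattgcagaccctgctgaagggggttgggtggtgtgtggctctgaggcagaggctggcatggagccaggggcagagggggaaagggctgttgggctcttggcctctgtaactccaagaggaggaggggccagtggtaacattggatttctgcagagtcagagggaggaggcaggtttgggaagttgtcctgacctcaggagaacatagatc
Vsig4: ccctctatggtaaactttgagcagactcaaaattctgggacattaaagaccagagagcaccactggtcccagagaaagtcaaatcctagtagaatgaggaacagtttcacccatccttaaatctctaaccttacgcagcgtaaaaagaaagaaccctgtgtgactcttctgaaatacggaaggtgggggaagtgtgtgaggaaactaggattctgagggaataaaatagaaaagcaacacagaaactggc

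GAGGAAGT was found in 1 of the 29 markers with a promoter in the table, C1qc, where it starts 195 bases before the gene, which is 3.45% of these markers beside 2.79% of 27025 genes. TCATGTG was found in 2 of 29, C1qb and C1qc, which is 6.9% beside 3.72% of all genes. A match is a description of the letters and not a bound site.

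Among receptors and adaptors of phagocytes, Fcgr3, an activating receptor for immunoglobulin G, was the single marker whose groups did not overlap, as held for 1.9% of all tested genes. It measured 13.02, 12.61, 12.74, 13.12 and 12.84 with PM2.5 and 11.49, 10.60, 11.65, 11.12 and 12.56 in the combined group. Mouse 5 lay just under the lowest PM2.5 mouse. Fcgr3 fell by 1.38 (SE 0.25, adjusted p = 0.00218), and by 0.97 without mice 2 and 4 (SE 0.23, adjusted p = 0.0355). The signalling adaptors fell as well: Tyrobp (DAP12) by 1.60 (adjusted p = 0.0149) and Fcer1g, the common gamma chain, by 1.35 (adjusted p = 0.0466). Without mouse 5 their differences were -2.06 and -1.87, and without mice 2 and 4 they were -0.99 (adjusted p = 0.211) and -0.80 (adjusted p = 0.443). Fcgr1, the high-affinity receptor, differed by -0.71 and did not pass (adjusted p = 0.0925).

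Pla2g7, the secreted hydrolase of platelet-activating factor, measured 9.19, 9.08, 9.17, 9.53 and 9.71 with PM2.5 and 6.97, 5.73, 6.96, 6.19 and 9.22 in the combined group. Combined mice 1 to 4 lay far below the lowest PM2.5 mouse. It fell by 2.32 (SE 0.44, adjusted p = 0.00268) to a combined mean of 7.02, which lies below the negative controls' 95th percentile of 8.36. The combined means of Adgre1 (7.49), Folr2 (7.16), Timd4 (6.20), C1qc (8.29), Tyrobp (6.82) and Fcer1g (7.87) also lay below 8.36. Those of the other markers that fell lay above it. The scavenger receptor Msr1 fell by 1.5 (SE 0.29, adjusted p = 0.00317). Cybb, the catalytic chain of the phagocyte NADPH oxidase, fell by 1.49 (SE 0.35, adjusted p = 0.0101). Without mouse 5 the differences of Pla2g7, Msr1 and Cybb were -2.87, -1.87 and -1.92. Without mice 2 and 4 they were -1.62 (adjusted p = 0.0532), -1.08 (adjusted p = 0.0532) and -0.99 (adjusted p = 0.173).

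Csf1r, the receptor for the growth factor on which macrophages depend, measured 10.01, 10.54, 10.67, 11.22 and 11.01 with PM2.5 and 9.79, 8.49, 9.21, 9.48 and 10.96 in the combined mice, and fell by 1.10 (SE 0.35, adjusted p = 0.0418). Mrc1, the mannose receptor, which sinusoidal endothelium also makes, fell by 0.60 (SE 0.19, adjusted p = 0.0405). Without mouse 5 these differences were -1.45 and -0.77, and without mice 2 and 4 they were -0.70 (adjusted p = 0.363) and -0.37 (adjusted p = 0.355). The other 12 general myeloid markers did not pass. Among them, the lysosomal proteins differed by -1.0 (Laptm5), -0.84 (Ctss, cathepsin S) and -1.01 (Lyz2, lysozyme), the transcription factors by -0.77 (Spi1) and -0.17 (Irf8), and the leukocyte phosphatase Ptprc (CD45) by -0.57.

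The lipid-associated and recruited markers were dim. Gpnmb, a glycoprotein of lipid-laden macrophages, measured 4.72, 5.34, 4.67, 5.38 and 4.60 in filtered air, 6.92, 4.42, 5.22, 5.03 and 5.28 with metformin, 5.60, 4.98, 5.03, 7.0 and 6.25 with PM2.5, and 5.97, 4.48, 5.19, 4.59 and 7.11 in the combined group. All groups overlapped. Metformin mouse 1, PM2.5 mouse 4 and combined mouse 5 were the highest of their groups in Gpnmb, and also in Trem2, Lgals3 (galectin-3) and Ccr2, the chemokine receptor of entering monocytes. These mice were also the highest of their groups in 13, 14 and 21 of the 23 general myeloid markers. In metformin mouse 1 this went with the lowest Folr2 of its group, 6.49. In all 6 comparisons, 0 of the 4 passed, and 1 had an unadjusted p under 0.05, Trem2 in the interaction (-0.87 ± 0.41). These genes are within the range of the negative controls.

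**Figure D3:**
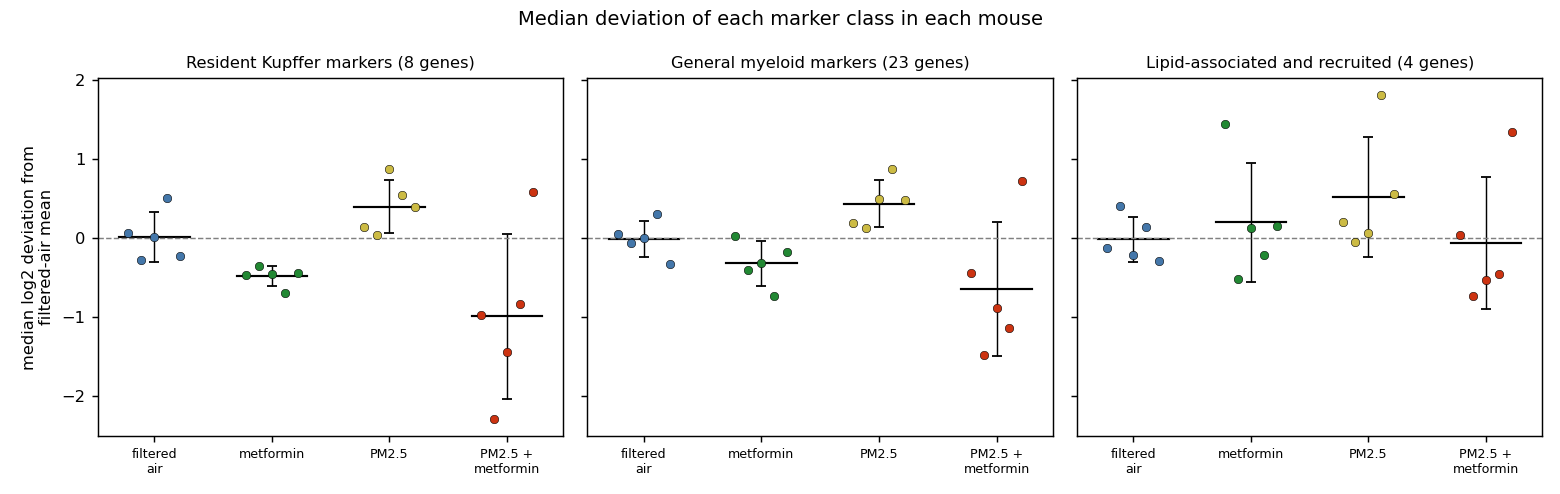
Median over the tested genes of a class of the log2 deviation from the filtered-air mean, for each mouse (points, mice 1 to 5 from left to right), with group mean (line) and SD (bar). Resident markers ran from -0.28 to 0.51 in filtered air, from -0.69 to -0.35 with metformin, from 0.04 to 0.88 with PM2.5 and from -2.30 to 0.58 in the combined group.

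The fall depended on which combined mice were counted. Leaving out mouse 5 gave 27 of 35 markers that fell against PM2.5 in place of 16, where 18.1% of all tested genes passed in that fit: 6 resident, 20 general myeloid and 1 lipid-associated (Lgals3, -1.36, adjusted p = 0.019). Leaving out mice 2 and 4 left Vsig4 and Fcgr3, where 1.74% of all tested genes passed, and the class medians became -0.92, -0.49 and 0.00. With the negative-control median of each array as a covariate, 0 of 35 passed (limma), 10 had an unadjusted p under 0.05, 0.667% of all tested genes passed, and the class medians were -0.69, -0.41 and 0.16. The part of the background in the result beyond these fits was not tested. In combined mice 1 to 5 the negative-control median was 4.59, 4.79, 4.46, 4.69 and 4.44. The resident median, as deviation from the filtered-air mean, was -0.97, -2.30, -1.44, -0.83 and 0.58 in the same order.

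**Figure D4:**
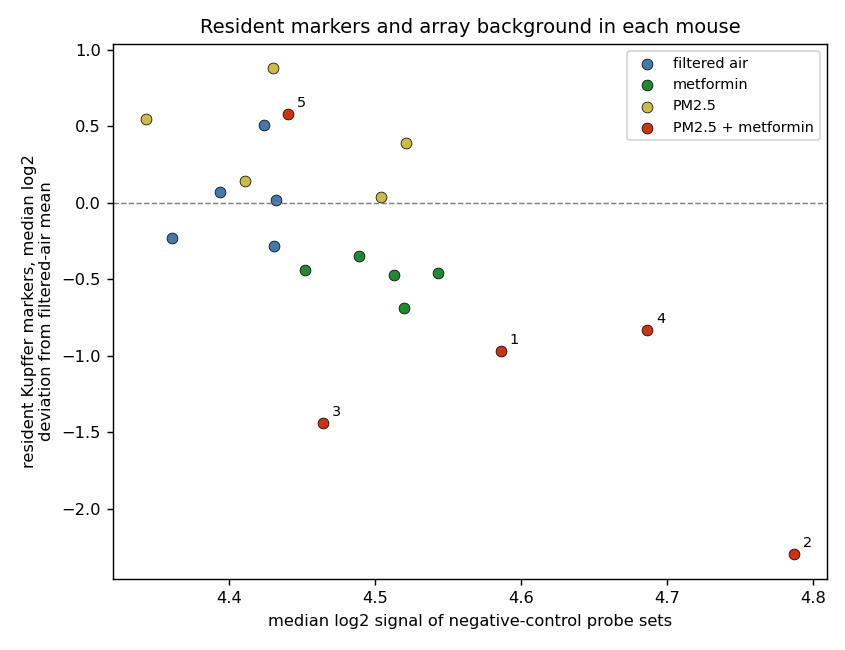
Median log2 deviation of the 8 resident markers from the filtered-air mean (vertical axis) against the median log2 signal of the negative-control probe sets (horizontal axis), 1 point per mouse, coloured by group, with the combined mice numbered. Mice 2 and 4 stand furthest right at 4.79 and 4.69 and are low in the markers, mouse 3 is low at 4.46, and mouse 5 is high at 4.44.

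Particles alone gave higher values that did not pass. With PM2.5 against filtered air, 31 of 35 markers lay above 0 with a median of 0.45, beside 0.02 over all tested genes. By limma 0 of 35 passed, where 5.17% of all tested genes did, and 10 of 35 had an unadjusted p under 0.05. In 10 of 35 markers at least 4 of 5 PM2.5 mice lay above all filtered-air mice, which held for 10.7% of all tested genes. Marco came closest, with 5.02, 4.78, 5.07, 4.88 and 4.74 in filtered air and 5.60, 5.48, 6.70, 6.33 and 5.07 with PM2.5, a difference of 0.94 ± 0.28 (adjusted p = 0.0531). The groups met at 5.07. Pla2g7 (0.94 ± 0.44, adjusted p = 0.204) was the single marker with all PM2.5 mice above all filtered-air mice, as held for 3.55% of all tested genes. Next came Irf8 (adjusted p = 0.0635), Cd163 at 0.77 ± 0.25 (adjusted p = 0.0762) and Csf1r at 0.97 ± 0.35 (adjusted p = 0.0979), while Clec4f differed by 0.13 ± 0.40 and Adgre1 by 0.18 ± 0.30. Fitted on these groups alone, 7 markers rose (Csf1r, Cybb, Laptm5, Marco, Pla2g7, Slc11a1 and Spi1), where 6.5% of all tested genes passed. Without combined mouse 5, 5 of these rose (Csf1r, Cybb, Laptm5, Marco and Spi1), where 6.41% of all did. Leaving out 1 other mouse gave 1 or 2 calls in 5 cases, where 2.09% to 6.13% of all tested genes passed: Cd163 without filtered-air mouse 4, Cd163 and Irf8 without PM2.5 mouse 4, Marco without PM2.5 mouse 5 or combined mouse 2, and Marco and Cd163 without combined mouse 4.

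Metformin without particles went with lower values that did not pass either. Against filtered air, 27 of 35 markers lay below 0 with a median of -0.31, beside 0.00 over all tested genes. By limma 0 of 35 passed, where 3.15% of all tested genes did, and 2 of 35 had an unadjusted p under 0.05. Clec4f measured 10.34, 10.03, 10.26, 11.08 and 10.12 in filtered air and 9.08, 9.84, 9.26, 9.28 and 9.87 with metformin, a difference of -0.90 ± 0.40 (adjusted p = 0.229). Its groups did not overlap, nor did those of Adgre1 (-0.56), Folr2 (-1.09), Msr1 (-0.60) and Aif1 (-0.64, the calcium-binding protein IBA1). Such a separation downwards held for 5 of 35 markers and for 3.57% of all tested genes. With at least 4 of 5 metformin mice below all filtered-air mice the numbers were 10 of 35 and 9.11%. Fitted on these groups alone, Clec4f and Msr1 fell, where 4.42% of all tested genes passed. With the background covariate 0 of 35 passed by limma (1 with an unadjusted p under 0.05), where 1.24% of all tested genes did. The marker median was then 0.04, with class medians of -0.12 (resident), 0.02 (general myeloid) and 0.60 (lipid-associated or recruited). The negative-control median ran from 4.36 to 4.43 in filtered air and from 4.45 to 4.54 with metformin. PM2.5 and metformin alone were both compared with the same filtered-air mice.

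Against metformin alone, 4 of 35 markers fell in the combined group and 0 rose, where 6.63% of all tested genes fell and 9.69% rose: Vsig4 by 1.59 (adjusted p = 0.0268), Pla2g7 by 1.61 (adjusted p = 0.016), Msr1 by 1.04 (adjusted p = 0.0187) and Fcgr3 by 0.97 (adjusted p = 0.0127). Clec4f differed by -0.58 ± 0.40 and Timd4 by -0.02 ± 0.23. Without mouse 5, 13 fell, where 20.3% of all tested genes passed. Without mouse 2 or without mouse 4 of this group 1 fell, where 11.3% and 9.61% of all tested genes passed. Without both mice 0 markers passed by limma (5 with an unadjusted p under 0.05), where 4.21% of all tested genes did. The marker median went from -0.24 to 0.12. Fitted on these groups alone 0 markers passed (5 unadjusted), where 8.62% of all tested genes did. With the background covariate 0 markers passed (6 unadjusted), where 8.52% of all tested genes did, with a marker median of 0.06.

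Against filtered air, the combined group had 13 markers lower and 1 higher, where 16.2% of all tested genes were lower and 18.7% higher. The falls were in Adgre1, Clec4f, Vsig4, Folr2, Msr1, C1qa, C1qb, C1qc, Mrc1, Aif1, Fcgr3, Tyrobp and Pla2g7, from -2.09 ± 0.48 for Vsig4 (adjusted p = 0.00191) upwards, with the lowest adjusted p for Msr1 (-1.64 ± 0.29, adjusted p = 0.000262). Cd163 rose by 0.72 (SE 0.25, adjusted p = 0.0317), from 6.38, 5.90, 6.78, 6.97 and 6.31 in filtered air. Its groups overlapped, and the rise did not pass without mouse 5 (0.65, adjusted p = 0.0643) or without mice 2 and 4 (0.64, adjusted p = 0.0744). Nor did the rise pass without combined mouse 4, the highest of its group, or without filtered-air mouse 1, 2 or 5. It was also lost with quantile normalization and on the compared groups alone. With 1 mouse left out at a time the difference ran from 0.51 to 0.88. Without combined mouse 5, 19 passed, where 36.6% of all tested genes did, and without mouse 4, 9 passed, where 28.7% did, in both cases all lower. Without mice 2 and 4, 4 markers were lower (Adgre1, Vsig4, Msr1 and Fcgr3) and Marco was higher, where 21.5% of all tested genes passed, and the marker median went from -0.62 to -0.12. With the background covariate, 0 of the 13 falls passed by limma and Marco alone passed, higher, where 8.9% of all tested genes did, with a marker median of 0.08. The same combined mice enter the comparisons with PM2.5, with metformin and with filtered air.

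The interaction asks whether metformin shifted a marker by another amount under PM2.5 than without it. The estimate was below 0 in 34 of 35 markers, with a median of -0.74 beside 0.01 over all tested genes. By limma 0 of 35 passed, where 0.186% of all tested genes did, and 10 had an unadjusted p under 0.05. Pla2g7 had the lowest estimate, -2.55 ± 0.62 (adjusted p = 0.0842), and Vsig4 followed at -2.0 ± 0.67 (adjusted p = 0.197). Without combined mouse 5, 9 markers passed (Adgre1, C1qa, C1qb, C1qc, Cybb, Fcgr3, Msr1, Pla2g7 and Vsig4), with Pla2g7 at -3.11 ± 0.42 (adjusted p = 0.000897), where 2.44% of all tested genes passed. Without mice 2 and 4, 0 markers passed by limma (3 with an unadjusted p under 0.05), where 0.0844% of all tested genes did, and the marker median was -0.32. With the background covariate 0 markers passed (5 unadjusted), where 0.371% of all tested genes did, and the marker median was -0.48.

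Within groups, Clec4f moved with Vsig4 and Adgre1 from mouse to mouse, and the 3 C1q genes moved with each other. After each group's mean was removed, Pearson's r over 20 mice was 0.933 for Clec4f and Vsig4 (Spearman's rho 0.675), 0.873 for Clec4f and Adgre1 (rho 0.653), 0.952 for C1qa and C1qc (rho 0.914), 0.929 for C1qb and C1qc (rho 0.744) and 0.885 for C1qa and C1qb (rho 0.779). All had an adjusted permutation p of at most 0.0146 for rho and 0.001 for r, over 9 pairs. Without the 2 mice farthest from the median of the first gene these r were 0.738, 0.654, 0.827, 0.717 and 0.544, and without the combined group 0.873, 0.683, 0.859, 0.706 and 0.649. Trem2 and Gpnmb gave r = 0.789 (rho 0.627, adjusted permutation p 0.00099 for r and 0.0146 for rho), with 0.662 without the 2 farthest mice and 0.783 without the combined group. Between the classes, Clec4f and Trem2 gave r = 0.391 (rho 0.28, adjusted permutation p 0.0755 and 0.306), with 0.18 without the 2 farthest mice. Arrays shared by a pair also share their background.

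Markers of the other cells of the sinusoid moved with the Kupffer markers in part. Of 15 tested markers of sinusoidal endothelium, 6 fell in the combined group against PM2.5 (Clec4g, Fcgr2b, Oit3, Lyve1, Pecam1 and Tek), with a list median of -0.43. Among all tested genes 4.73% fell. Without mouse 5, 7 fell with a median of -0.55, where 18.1% of all tested genes passed. Leaving out mice 2 and 4, Clec4g and Fcgr2b fell with a median of -0.25, where 1.74% of all passed. On the compared groups alone 4 fell, where 4.3% of all tested genes passed. With the background covariate 0 of 15 passed by limma (5 unadjusted), where 0.667% of all tested genes did. Clec4g, a lectin of these cells, measured 11.06, 10.17, 10.93, 10.82 and 12.37 in combined mice and from 12.36 to 12.77 in PM2.5 mice, with mouse 5 high here too (-1.51 ± 0.28, adjusted p = 0.00227). Stab2, a hyaluronan scavenger receptor of the same cells, differed by 0.03 ± 0.19. Clec4f correlated with Clec4g at r = 0.81 (rho 0.562, adjusted permutation p 0.00672 and 0.017), but at 0.377 without the 2 farthest mice and 0.388 without the combined group (adjusted permutation p 0.218), so that the relation rests on those mice. With Stab2, r was 0.106 (rho 0.152, adjusted permutation p 0.535 and 0.545) and 0.064 without the 2 farthest mice. By limma 0 of 11 hepatocyte, 11 stellate, 5 neutrophil and 4 T and natural killer cell markers passed, with list medians of -0.04, -0.36, -0.11 and -0.16 in that order. Of these, 3 stellate markers and 0 of the others had an unadjusted p under 0.05. The neutrophil markers (5 of 10 listed were tested) had means from 4.38 to 5.74. The T and natural killer cell markers (4 of 12 listed) had means from 4.44 to 5.6. In both lists 0 lay above 8.36, so these counts say little about those cells. Of 4 bile duct markers 1 fell (Anxa4, -0.53), 2 erythroid markers did not pass, and 0 B cell markers were bright enough to be tested. Their part in the result was not tested.

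Genes that feed or identify Kupffer cells were mixed. Of 12 tested genes for macrophage survival and identity, 1 rose and 1 fell in the combined group against PM2.5. Among all tested genes 6.95% rose and 4.73% fell there. Spic, a transcription factor of iron-recycling macrophages, fell by 1.29 (SE 0.41, adjusted p = 0.0437), and Tgfb1, a growth factor that maintains tissue macrophages, rose by 0.60 (SE 0.18, adjusted p = 0.0378). Csf1, the ligand of Csf1r, differed by 0.13 ± 0.21 (adjusted p = 0.75). With PM2.5 against filtered air Id3, a regulator needed for Kupffer cell identity, rose by 1.17 (SE 0.34, adjusted p = 0.0473). It was 1 of the 12 genes to pass there, where 5.17% of all tested genes did, and no alternative fits are given for it. Of 8 tested chemokine and adhesion genes, Cxcl16 (-1.28) and Vcam1 (-1.93), with which monocytes are held in the sinusoid, fell in the combined group against PM2.5. Of 5 dendritic cell markers the class II genes H2-Aa (-1.92) and H2-Ab1 (-1.66) fell, which macrophages also express, and of 11 genes of lipid handling and lysosomes Cd9 did (-1.19). These differences from PM2.5 also passed without mouse 5, where they were -1.62 for Spic, 0.64 for Tgfb1, -1.53 for Cxcl16, -2.41 for Vcam1, -2.49 for H2-Aa, -2.22 for H2-Ab1 and -1.37 for Cd9. Without mice 2 and 4, or with the background covariate, none of these 7 genes nor Anxa4 passed, and the lowest adjusted p over both fits was 0.153 for Cxcl16. On the compared groups alone, Vcam1 (adjusted p = 0.0444) and Cd9 (adjusted p = 0.0479) passed by limma. Spic, Tgfb1, Cxcl16, H2-Aa and H2-Ab1 did not pass in that fit, with adjusted p from 0.0512 to 0.0891, nor did Anxa4 (adjusted p = 0.109).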

How the data were processed

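Liver RNA of 20 ob/ob mice was hybridised to 1 array per mouse. Values are log2 signal as deposited, 1 per probe set, from Affymetrix Expression Console per the submitters' processing notes. Its version and summary method are not given in the sources used here. The series text names another array than the one these probe set identifiers belong to, so that gene names follow the platform annotation that lists these identifiers. Of 28846 probe sets, 6640 controls were left out of the tests, and 19572 of the others had 1 gene, 0 several and 2634 none. For a gene with several probe sets (55 genes), the one with the highest mean was used. Genes with a mean at or below the 40th percentile (4.05) were left out as dim. Arrays give no read depth, and their number limits the precision.

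Group differences came from limma 3.58.1 in R 4.3.3, as 1 model of 4 group means over 11844 genes with eBayes, two-sided, with Benjamini-Hochberg adjustment over all genes. The model takes 1 variance per gene over all groups, so that standard errors can be too small for a group that varies more, as the combined group does. Correlations of 9 marker pairs used 100000 two-sided permutations within groups in Python 3.11.15. Errors after ± are standard errors unless SD is given. The labels do not say how the livers were drawn from litters or cages. Named are members that passed, the 3 with the lowest p of each class, and a fixed set of markers. Genes of the other lists are named where they passed, at most 3 per list and comparison; others were chosen after their values were seen. The members and lists were chosen with earlier results of these data known. The steps were tested on simulated data. The simulation of the fit gave each gene 1 SD in all groups, so it cannot show how the fit behaves where the combined group varies more. Promoters are from RefSeq (GRCm38.p6), and 29 of 36 markers matched. Alternatives were other filters, median centring, quantile normalization, the mean of probe sets, array weights, trend and robust variances, the compared groups alone, the background covariate, and leaving out mice.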

Additional observations from a re-analysis of the deposited data

Results flagged for a closer look

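In 9 of 144 sets (36 genes in 4 groups) the highest or lowest mouse stood apart from its group by Dixon's criterion. Chance meets it in about 1 in 20 sets, or 7.2 of 144, so the number of such cases is near the chance count. Combined mouse 5 was such a high value for 3 myeloid markers: Spi1 at 12.12, Fcer1g at 9.95 and Fcgr1 at 7.84. Filtered-air mouse 4 was high for Adgre1 at 9.28 and Aif1 at 9.25. In the metformin group mouse 1 was low for Folr2 at 6.49 and mouse 4 was low for C1qa at 9.23. PM2.5 mouse 4 was high for Cd14, the lipopolysaccharide co-receptor, at 8.02, and combined mouse 3 was low for Itgax at 2.70, a value within the background. All values are log2 signal, and why these mice stood apart was not tested.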

How the results depend on the processing

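No paired analysis was possible because the labels give no numbers shared between groups. Counts below are of the 35 tested markers, and the cause of a shift was not tested. Fitted on the compared groups alone, 7 markers passed for PM2.5 against filtered air (6.5% of all tested genes), 2 for metformin against filtered air (4.42%), 6 for the combined group against PM2.5 (4.3%), 0 against metformin (8.62%) and 9 against filtered air (30.9%). With array weights 7 passed for PM2.5 against filtered air, where 11.6% of all tested genes did. In that fit 7 passed for the combined group against metformin (16%) and 2 in the interaction (0.912%). Trend and robust variances gave 1 (Marco) for PM2.5 against filtered air (5.36%). With the background covariate the 3 comparisons of the combined group (against PM2.5, metformin and filtered air) gave 0, 0 and 1 (0.667%, 8.52% and 8.9%). PM2.5 against filtered air gave 1 (Marco, 5.68%) in that fit. The 1 of the combined group against filtered air was Marco, higher, and none of the 13 falls passed there. Without combined mice 2 and 4 the same 3 comparisons gave 2, 0 and 5 (4 lower and Marco higher), where 1.74%, 4.21% and 21.5% of all tested genes passed. PM2.5 against filtered air then gave 2 (7.92%).

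With 1 mouse left out at a time, the counts ran from 0 to 5 (PM2.5 against filtered air), 0 to 0 (metformin against filtered air), 11 to 27, 1 to 13 and 9 to 19 (the combined group against PM2.5, metformin and filtered air) and 0 to 9 (interaction). The shares of all tested genes that passed moved as well. In the same order they ran from 1.76% to 6.41%, 1.33% to 4.11%, 5.38% to 18.1%, 9.61% to 20.3%, 28.7% to 36.6% and 0.0591% to 2.44%. In the comparison with PM2.5, 11 markers passed in all 20 such fits. These fits share most of their arrays, and the share of all tested genes that passed in all of them was not counted. Fewer markers passed on the compared groups alone (6), without mice 2 and 4 of the combined group (2) and with the background covariate (0). The correlation of Clec4f and Trem2 ran from 0.195 to 0.53, that of Clec4f and Clec4g from 0.543 to 0.861, and the latter was 0.388 without the combined group, an alternative chosen after seeing the data. The other filters, median centring, quantile normalization and the mean of probe sets left each count within 1.5 times. Under the 60th percentile filter no lipid-associated marker was left.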
